A study of Mus musculus with 8 samples.

Results

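The genes described are lineage transcription factors of hepatic stellate cells and of mesenchyme, outside the LIM-homeobox and nuclear receptor families. A list of 39 factors was matched to the deposited table through the platform annotation, and 38 of them were among the 19938 genes measured there by a probe set with a single gene symbol; Runx2 is not analysed here. Hepatic stellate cells line the liver sinusoids as pericytes and store retinoids. All mice carried floxed Lhx2 alleles (C57BL/6J background) and were given poly(I:C), an inducer of interferon, 3 times. Their stellate cells were enriched on a density gradient 2 weeks later, sorted by the autofluorescence of their retinoids and lysed at once. The controls are 4 arrays of floxed mice without Cre (control 1 to 4), and the knockouts are 4 arrays of floxed mice that also had the Mx1Cre transgene (knockout 5 to 8). The Mx1 promoter answers to interferon in many cell types, and only the knockout mice carried Cre. Loss of Lhx2 in stellate cells, its loss in other cells and effects of the transgene therefore cannot be told apart. Whether the arrays stand for separate animals is not stated, so p-values cover only the spread among these arrays, possibly a technical one.

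Transcription factors of this kind set and hold the identity of mesenchymal cells. Basic helix-loop-helix factors such as Hand2, Tcf21 and the Twist proteins bind E-box sequences as dimers with E proteins such as Tcf4. Snail and Zeb zinc finger proteins repress epithelial genes, GATA4 and the forkhead factor Foxf1 are known from stellate cells and liver mesenchyme, and Srf drives actin cytoskeleton genes together with the myocardin-related factors. The series asks how loss of Lhx2 bears on stellate cell activation, the change into matrix-producing myofibroblasts, in which several of these factors are known to take part.

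Lhx2, the deleted LIM-homeobox gene, was lower on each knockout array than on each control array. Its mean log2 expression was 11.95 ± 0.08 without and 11.29 ± 0.17 with Cre (SD, n = 4 each), 63.3% of the control level, with an exact two-sided permutation p of 0.0286, the smallest that 4 arrays against 4 can give. The labels do not say which part of the gene was floxed, so its probe set may lie outside the deleted part. The stellate markers Lrat, Des, Pdgfrb and Colec11 had mean log2 levels between 12.42 and 13.75 in both groups, against a 95th percentile of 6.77 for 1194 olfactory and vomeronasal receptor genes, a guide to unexpressed levels. Of 13 stellate markers, 6 fell (Lhx2, Hand2, Reln, Hgf, Gfap and Rgs5) and Col3a1 rose, at an adjusted p under 0.05 in limma. By that rule 3.63% of all genes fell and 3.76% rose. The mean level of the markers ran from 12.61 to 12.68 on the control and from 12.39 to 12.42 on the knockout arrays. The deleted Lhx2 itself and Hand2, a factor of the list described here, are included in that mean. Values on all arrays ran from 4.19 to 14.4, and array medians from 7.42 to 7.47. The number of arrays limits the precision.

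Among the 38 factors, 8 fell in the knockout and 0 rose. Grhl3, a Grainyhead factor of epithelial differentiation, fell 4.03-fold, Srf fell 1.51-fold, and Tcf21, Hand2, Twist2, Snai1, Ets2 and Wt1 fell by smaller steps of 1.18-fold to 1.40-fold. The 8 make up 21.1% of the factors, while 3.63% of all 19938 genes were lower and 3.76% higher by the same rule, an adjusted p under 0.05 in limma with Benjamini-Hochberg adjustment over all genes. At an unadjusted p under 0.05, 12 factors were lower and 0 higher, against 8.57% and 8.91% of all genes. The median log2 difference, knockout minus control, was -0.11 for the 38 factors and -0.02 for all genes. All 4 knockout arrays lay below all 4 control arrays for 11 factors, and above them for 0, where 6.32% and 6.38% of all genes were separated in these ways. The list was chosen with earlier results of these data known, so these shares describe it and do not test such factors as a class. In these arrays of sorted cells, fewer cells that express a factor and less RNA per cell cannot be told apart.

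**Figure D1:**
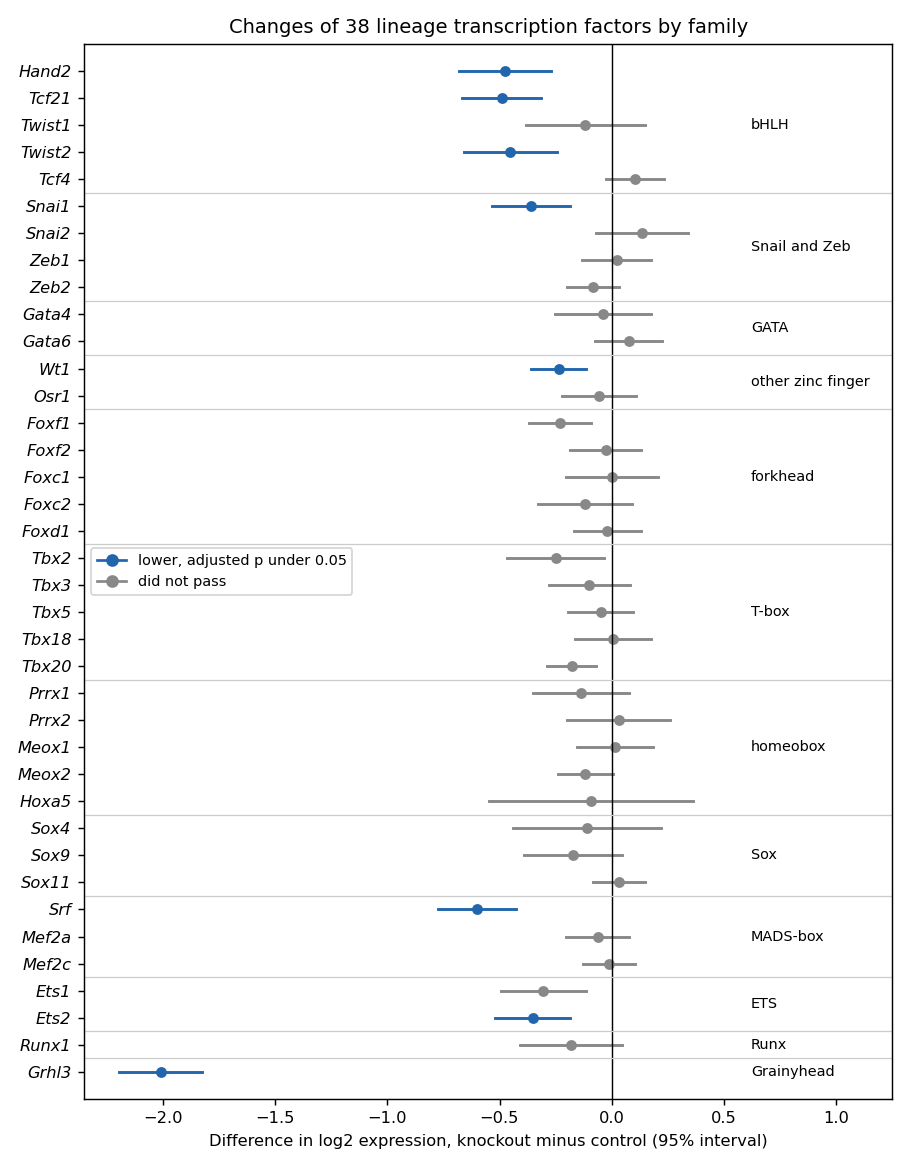
Difference in log2 expression, knockout minus control, of each of the 38 factors (points) with its 95% interval from limma (lines), grouped by family. Blue marks the 8 factors that fell, from Grhl3 at -2.01 to Wt1 at -0.24, and grey the 30 that did not pass.

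Grhl3 had the largest difference of the list. On the log2 scale its levels were 10.35, 10.49, 10.62 and 10.59 across controls 1 to 4 and 8.39, 8.41, 8.67 and 8.53 across knockouts 5 to 8. The groups lay far apart, with the highest knockout array well below the lowest control array. The difference of -2.01 (SE 0.08; limma adjusted p = 1.42e-06) left 24.8% of the control level. Grainyhead factors are known for opening epithelial genes. Beside it were set 21 epithelial genes known to be driven by them or held down by Snail and Zeb factors. In limma 0 of 21 were called in either direction, 0 had an unadjusted p under 0.05, and their median difference was -0.02. However, 8 of the 21 were not above the guide level. Their mean level was low, from 6.90 to 7.16 on the control and from 6.94 to 7.02 on the knockout arrays. Changes of these genes could therefore be hard to see. The 250 bases upstream of the Grhl3 start in the RefSeq promoter table (GRCm38.p6, chr4:135573633-135573882, minus strand) are shown because Twist, Hand and Tcf21 proteins bind E-boxes (CANNTG), which stand in capitals.
Grhl3: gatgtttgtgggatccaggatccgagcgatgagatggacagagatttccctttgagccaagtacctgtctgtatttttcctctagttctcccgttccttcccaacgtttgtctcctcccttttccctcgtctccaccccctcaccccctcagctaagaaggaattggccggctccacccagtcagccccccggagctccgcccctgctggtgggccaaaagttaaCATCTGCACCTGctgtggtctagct
Both matches lie just before the start, with their first bases 25 and 19 bases upstream of it. E-boxes are common, being in 66.2% of all 32851 promoter windows of that length, and a match is a description of the letters, not a binding site.

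Srf, the serum response factor, had the second largest difference. Its log2 levels were 10.93, 10.90, 10.75 and 10.89 across the controls and 10.21, 10.11, 10.42 and 10.34 across the knockouts, with no overlap. The difference was -0.60 (SE 0.08; limma adjusted p = 0.0012), or 66.0% of the control level. The other MADS-box factors of the list, Mef2a (-0.06, SE 0.06) and Mef2c (-0.01, SE 0.05), which act in muscle and vascular development, did not pass. Srf is known to bind CArG boxes, including those of its own promoter. Its upstream window (GRCm38.p6, chr17:46556163-46556412, minus strand) is shown with the CArG boxes in capitals. TTTATA, which reads TATAAA on the opposite strand, is in capitals as well.
Srf: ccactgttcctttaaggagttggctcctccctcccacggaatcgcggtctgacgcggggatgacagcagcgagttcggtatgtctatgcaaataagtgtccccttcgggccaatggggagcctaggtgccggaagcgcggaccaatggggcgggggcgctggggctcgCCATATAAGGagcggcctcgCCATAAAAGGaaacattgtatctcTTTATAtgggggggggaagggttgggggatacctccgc
The 2 CArG boxes begin 82 and 62 bases upstream of the start. On either strand, 1.47% of all promoter windows held a CArG box, and Srf was the only factor among the 24 with a RefSeq window that did. TATAAA was in 12.4% of all windows on either strand, and this match is a description of the letters, not a working TATA box.

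The known partners of Srf fell in part. Mrtfb, a myocardin-related coactivator that carries actin signals to Srf, had log2 levels of 11.11, 11.29, 11.40 and 11.18 across the controls and 10.73, 10.72, 10.71 and 10.79 across the knockouts. It fell by 0.51 (SE 0.07; limma adjusted p = 0.00153), and its other probe sets had differences of -0.48 and -0.57. Elk3, an ETS cofactor of Srf, fell by 0.34 (SE 0.08; limma adjusted p = 0.0246). Mrtfa (0.15, SE 0.06), Elk1 (0.14, SE 0.05), Elk4 (-0.18, SE 0.05) and Myocd (-0.03, SE 0.08) did not pass, and Myocd was not above the guide level. Elk3 lost its call without control 1, control 4, knockout 5, 6 or 8 (limma adjusted p up to 0.0746) and with endothelial marker level as a covariate.

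Of 31 measured genes known as Srf targets, 5 fell, 2 rose and 24 did not pass, with a median difference of -0.08. By the same rule 3.63% of all genes fell and 3.76% rose. At an unadjusted p under 0.05 in limma, 8 targets were lower and 2 higher, against 8.57% and 8.91% of all genes. The focal adhesion protein Zyx, zyxin, fell by 0.70 (SE 0.12), Fhl1, a LIM-only protein of muscle, by 0.63 (SE 0.05), and Tgfb1i1, the adhesion adaptor Hic-5, by 0.40 (SE 0.10). Vcl, vinculin (-0.34), and Filip1l (-0.31) complete the fallen targets and were named after their values were seen. Fhl2, a relative of Fhl1, rose from 9.27 ± 0.22 to 10.25 ± 0.23 (SD, n = 4 each), a difference of 0.98 (SE 0.13; limma adjusted p = 0.00177). Tagln, transgelin of smooth muscle, had a rise of 0.77 (SE 0.13). The actins Acta2, Actb and Actg2 had differences of -0.24, -0.04 and -0.08 and did not pass, and Actg2 was not above the guide level. Tgfb1i1 lost its call with any 1 array other than knockout 7 left out (limma adjusted p up to 0.135) and after median centring, and Filip1l with control 2, control 4 or knockout 6 left out (up to 0.0622). The second probe set of Filip1l had a difference of -0.03, and the mean of both did not pass (-0.17, limma adjusted p = 0.199).

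**Figure D2:**
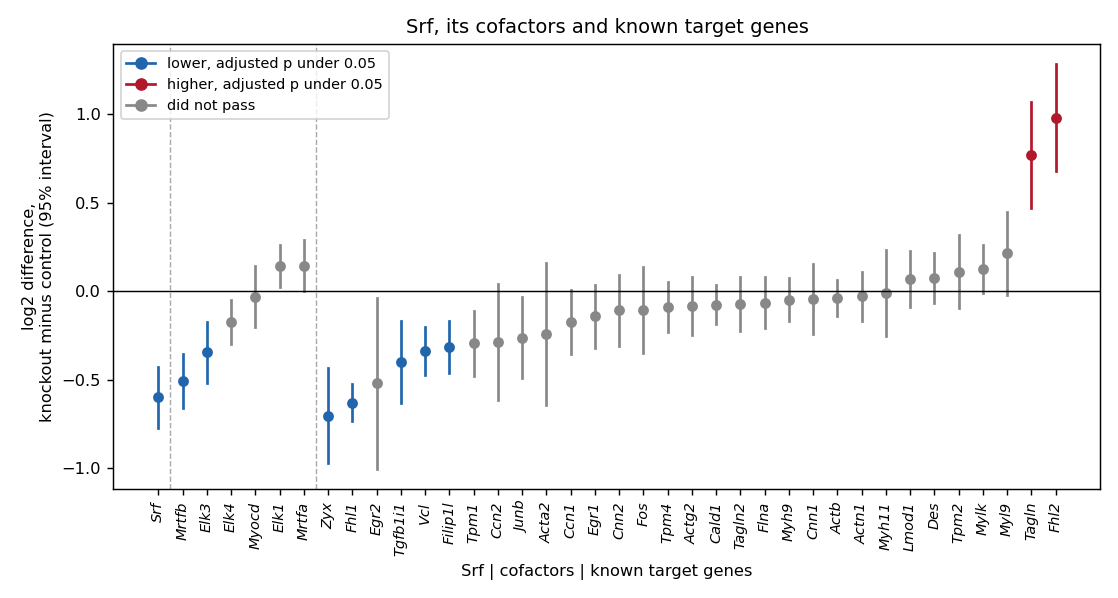
Difference in log2 expression, knockout minus control, with 95% intervals from limma for Srf, 6 cofactors and 31 known target genes, each part sorted by its difference. Srf, Mrtfb and Elk3 fell, 5 targets fell and Tagln and Fhl2 rose, while 24 targets did not pass (grey).

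The basic helix-loop-helix factors held 3 of the 8 falls. Tcf21, a factor of visceral mesenchyme and of fibroblast precursors, had log2 levels of 12.63, 12.48, 12.48 and 12.34 across the controls and 12.06, 12.03, 12.05 and 11.82 across the knockouts. It fell by 0.49 (SE 0.08; limma adjusted p = 0.00416), to 71.2% of the control level, and knockout 8 was the lowest array. Hand2, a factor of heart, limb and liver mesenchyme and a marker of stellate cells, had levels of 11.99, 12.15, 12.22 and 12.17 against 11.85, 11.75, 11.54 and 11.48. Its groups did not overlap, although control 1 and knockout 5 came close to each other, and it fell by 0.48 (SE 0.09; limma adjusted p = 0.0117). Twist2, a repressor that keeps mesenchymal cells undifferentiated, had levels of 10.34, 9.96, 10.21 and 10.18 against 9.83, 9.61, 9.84 and 9.60. It fell by 0.45 (SE 0.09; limma adjusted p = 0.0162). Its relative Twist1, at 7.27 ± 0.24 and 7.15 ± 0.13 (SD, n = 4 each), had a difference of -0.12 (SE 0.12), and the E protein Tcf4, the partner of the group, had 0.10 (SE 0.06); neither passed.

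The Hand2 window (GRCm38.p6, chr8:57320733-57320982, plus strand) is shown as the 1 window of a fallen factor that held TAATTA, the core recognised by many homeodomains, LIM-homeodomains among them. TAATTA and the E-boxes stand in capitals.
Hand2: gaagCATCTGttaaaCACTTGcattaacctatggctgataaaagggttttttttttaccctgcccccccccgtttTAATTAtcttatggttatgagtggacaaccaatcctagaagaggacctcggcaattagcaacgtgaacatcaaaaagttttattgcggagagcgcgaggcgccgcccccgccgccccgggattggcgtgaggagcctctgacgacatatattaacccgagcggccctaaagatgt
TAATTA begins 175 bases and the E-boxes 246 and 235 bases upstream of the start. TAATTA was in 4.84% of all windows on either strand and in those of 3 of the 24 factors with a RefSeq window. Of the 7 fallen factors with a window, 3 held an E-box, against 66.2% of all windows.

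**Figure D3:**
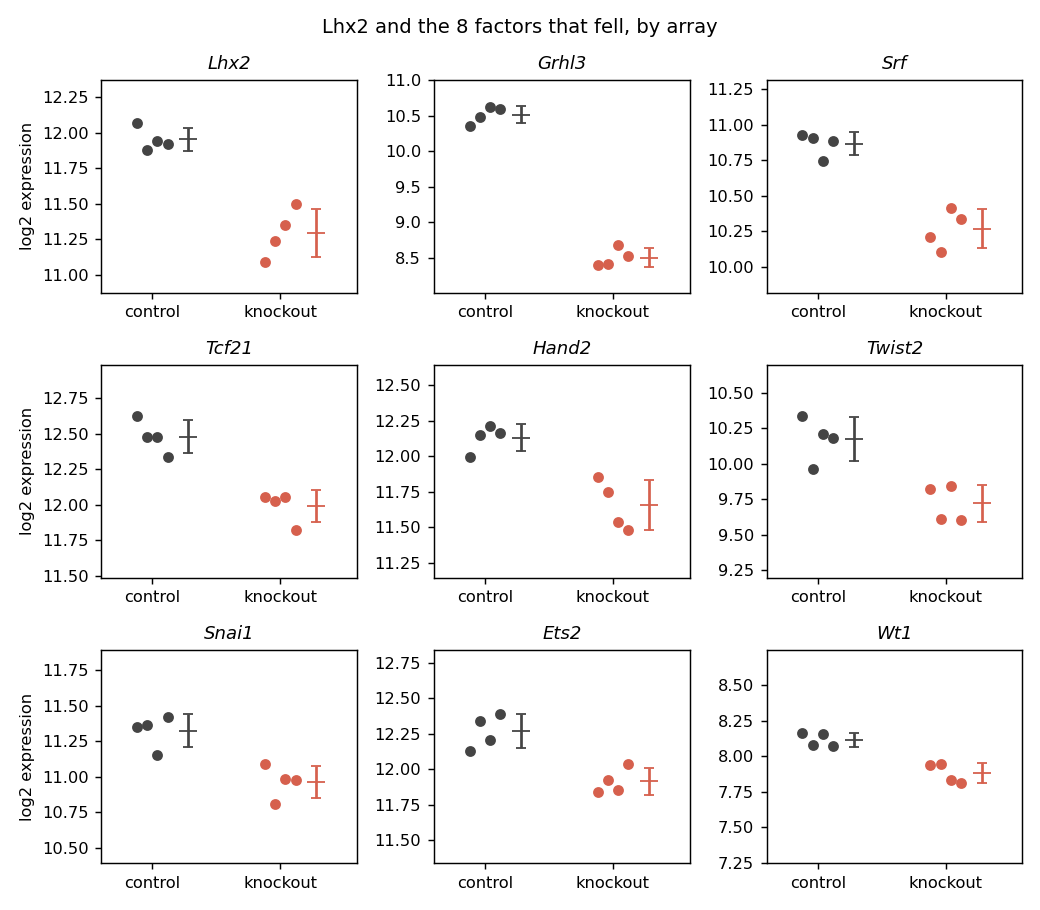
Log2 expression of Lhx2 and of the 8 factors that fell, 1 point per array in order of array number, with mean and SD (bars) beside each group of 4. Each panel has its own axis, which spans 3 log2 units for Grhl3 and 1.5 for the others, and in all 9 panels the knockout arrays lie below the control arrays.

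Among the repressors of epithelial genes, Snai1 fell and the others did not pass. Snai1 had log2 levels of 11.35, 11.36, 11.16 and 11.42 across the controls and 11.09, 10.81, 10.98 and 10.98 across the knockouts. The groups were close, with knockout 5 just below control 3, and the difference was -0.36 (SE 0.08; limma adjusted p = 0.0219). Snai2, its relative, had levels of 11.60, 11.26, 11.23 and 11.25 against 11.52, 11.52, 11.50 and 11.34. Control 1 stood above the other controls and above all knockout arrays, and the difference of 0.13 (95% interval -0.07 to 0.34) did not pass. Zeb1 (0.02, SE 0.07) and Zeb2 (-0.08, SE 0.05) did not pass, although the 4 knockout arrays of Zeb2, from 12.79 to 12.93, all lay just below its control arrays, from 12.93 to 12.97.

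Ets2, an ETS factor downstream of Ras signalling, fell by 0.35 (SE 0.07; limma adjusted p = 0.0188). Its levels were 12.13, 12.34, 12.21 and 12.39 across the controls and 11.84, 11.92, 11.85 and 12.04 across the knockouts. Ets1, a factor of endothelium and stromal cells, had levels of 11.71, 12.03, 11.99 and 12.08 against 11.73, 11.66, 11.54 and 11.67, with a difference of -0.30 (SE 0.08) that did not pass in the fit of the deposited values (limma adjusted p = 0.0662). On all arrays it passed after quantile normalization (limma adjusted p = 0.0448), with trend and robust eBayes (0.0272), with array weights (0.0128) and with the hepatocyte covariate (0.0231). Control 1 was the control array inside the knockout range; without it the difference of Ets1 was -0.38 (limma adjusted p = 0.00667). Control 1 also had the lowest mean level of 12 endothelial markers among the controls, 8.20 against 9.17 to 10.8, and their level ran from 8.27 to 9.60 on the knockout arrays. With that level as a covariate, Ets1 had an adjusted p of 0.111 and Ets2 of 0.0141 in limma.

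Wt1, a zinc finger factor of mesothelium and of the mesenchyme derived from it, fell by 0.24 (SE 0.05; limma adjusted p = 0.0291). Its levels were 8.16, 8.08, 8.16 and 8.07 across the controls and 7.93, 7.95, 7.83 and 7.81 across the knockouts, a small step with little spread. The mean of 10 mesothelial markers, Wt1 included, ran from 7.11 to 7.28 on the control and from 7.20 to 7.24 on the knockout arrays, where Wt1 fell and Cldn15 rose; 4 of the 10 were not above the guide level. Osr1, a zinc finger factor of embryonic mesenchyme, had a difference of -0.06 (SE 0.07). Gata4, known to hold stellate cells quiescent, had levels of 11.81, 11.56, 11.62 and 11.73 against 11.39, 11.62, 11.78 and 11.76, with overlap and a difference of -0.04 (95% interval -0.25 to 0.17). Gata6, its relative, had 0.07 (95% interval -0.07 to 0.22).

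No forkhead or T-box factor passed in the fit of the deposited values over all 8 arrays, though Foxf1 and Tbx20 did under some other settings. Foxf1, a target of hedgehog signalling in gut and liver mesenchyme, came closest, at 13.29, 13.23, 13.19 and 13.27 across the controls and 12.88, 13.04, 13.01 and 13.14 across the knockouts (difference -0.23, SE 0.06; limma adjusted p = 0.058). Its second probe set had a difference of -0.33 (SE 0.07) that passed on its own (limma adjusted p = 0.0134, over all annotated probe sets), as did the mean of both (-0.28, limma adjusted p = 0.0211) and the first without knockout 8 (-0.27, limma adjusted p = 0.0388). The first probe set also passed on all arrays with trend and robust eBayes (limma adjusted p = 0.0142) and with array weights (0.0414). Tbx20, a T-box factor of heart development, had levels of 12.79, 12.81, 12.71 and 12.70 against 12.57, 12.61, 12.55 and 12.57. These groups did not overlap, and the difference of -0.18 (SE 0.05) had a limma adjusted p of 0.0625. Tbx20 passed on all arrays after quantile normalization (limma adjusted p = 0.0496) and with trend and robust eBayes (0.0219), and not under the other settings. Tbx2, a repressor of the cell cycle inhibitor genes, had -0.25 (SE 0.10; limma adjusted p = 0.204), which passed without control 2 (-0.33, limma adjusted p = 0.0485). Foxc2 (-0.12) and Tbx3 (-0.10) did not pass.

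The limb and trunk homeobox factors, the Sox factors and Runx1 did not pass. Prrx1, a mark of fibroblast lineages, had a difference of -0.14 (SE 0.09) and Prrx2 of 0.03 (SE 0.10). Hoxa5, a position factor of the trunk, had the largest spread of the list in the control group, with levels of 7.80, 8.63, 8.51 and 8.87, and its interval ran from -0.55 to 0.36. Sox9, a factor of cartilage and bile ducts, had -0.17 (SE 0.10), and Sox4 had -0.11 (SE 0.15), with knockout arrays from 8.63 to 9.44 around control arrays from 9.08 to 9.31. Runx1, known from blood cells and activated stroma, had -0.18 (SE 0.10). Foxf2, Foxc1, Foxd1, Tbx5, Tbx18, Meox1, Meox2 and Sox11 had means at or under the guide level of 6.77, so their small differences, from -0.12 to 0.03, may not be measurements of expressed RNA. For all 30 factors that did not pass, the 95% interval lay inside a 1.5-fold change in either direction, from -0.55 to 0.36 on the log2 scale.

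**Figure D4:**
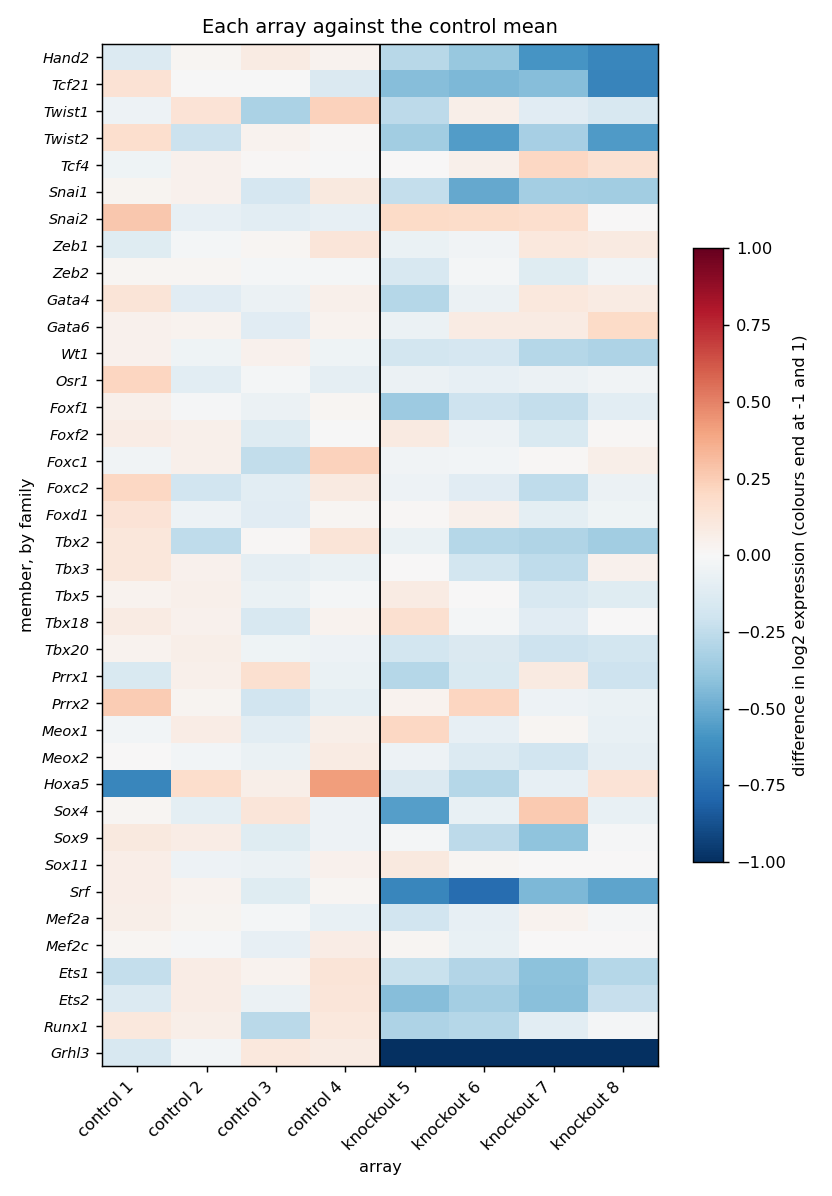
Log2 expression of each of the 38 factors (rows, by family) on each of the 8 arrays (columns), as the difference from the factor's control mean; colours end at -1 and 1, so Grhl3 is drawn at the end of the scale. Blue runs through all 4 knockout arrays for the 8 fallen factors, and control 1 stands apart for Hoxa5 and Snai2.

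Related factors did not all move by the same amount, so the log2 ratio within 13 pairs of relatives was compared between groups, a comparison added after the data were seen. The ratio of Snai1 to Snai2 was -0.01 ± 0.19 across the controls and -0.51 ± 0.15 across the knockouts (SD, n = 4 each), and the groups did not overlap (exact two-sided permutation p = 0.0286, adjusted over the 13 pairs 0.186). The ratio of Foxf1 to Foxf2 differed by -0.20 with the same p values, but Foxf2 was at an unexpressed level. The ratio of Twist2 to Twist1 differed by -0.33 (exact permutation p = 0.171) and that of Ets2 to Ets1 by -0.05 (exact permutation p = 0.571). None of the 13 pairs passed after adjustment, and 0.0286 is the smallest p this design can give.

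Partners and relatives outside the list were described from lists of genes chosen by function, with earlier results of these data known. For each of these lists the shares of all genes to set beside the counts are 3.63% lower and 3.76% higher. Of 34 dimer partners and cofactors, 5 fell, 1 rose and 28 did not pass (median difference -0.03). With Mrtfb and Elk3, the corepressors Tle1 (-0.69, SE 0.12), Tle3 (-0.39, SE 0.06) and Ctbp2 (-0.28, SE 0.05; named after its value was seen) fell; Groucho-type Tle proteins are recruited by Runx factors among others, and Ctbp2 by Zeb factors. Rcor1, a corepressor that joins Snai1 to histone demethylation, rose by 0.38 (SE 0.06). Of 100 genes listed as relatives of the factors, 1 rose, 1 fell and 98 did not pass, while 27 of the 100 were not above the guide level. The 1 that rose, Runx1t1, is a corepressor listed as a fusion partner of Runx1 and is not itself a Runx factor. It had levels of 9.68, 9.82, 9.74 and 9.69 across the controls and 10.65, 10.65, 10.95 and 10.79 across the knockouts, a rise of 2.04-fold (limma adjusted p = 3.69e-05). Tbx6 fell by 0.34 (SE 0.09; limma adjusted p = 0.0458); control 1 was its highest array, and the call was lost without control 2, control 4 or any 1 knockout array (adjusted p up to 0.113), and on all arrays after quantile normalization (0.0571). Of 22 cartilage and bone genes known as targets of Sox9 and Runx2, Alpl, alkaline phosphatase, fell by 1.10 (SE 0.17; limma adjusted p = 0.00412) and 21 did not pass. Among the 22, 11 were not above the guide level.

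Markers of other cells varied between arrays as well. The mean level of 14 hepatocyte markers ran from 8.71 to 10.8 on the control and from 9.14 to 10.7 on the knockout arrays, with 0 called in limma and 1 at an unadjusted p under 0.05. Of 12 endothelial markers 1, Clec4g, fell, at a median difference of -0.59. Of 14 portal fibroblast markers 6 rose (Cd34, Dpt, Eln, Mfap4, Gas6 and Dpep1), where 3.76% of all genes rose and 3.63% fell by the same rule. Their mean level ran from 7.60 to 7.83 on the control and from 8.52 to 8.70 on the knockout arrays. Cd34 rose by 3.08 and Gas6 by 3.01 on the log2 scale. Mean levels of markers of macrophages (7.36 to 8.22 and 7.34 to 7.80), lymphocytes (5.89 to 6.09 and 5.99 to 6.03), bile duct cells (6.55 to 6.74 and 6.53 to 6.73) and vascular smooth muscle (9.92 to 10.1 and 9.88 to 10.1) overlapped between groups, although Cd68 fell among the macrophage markers, and Notch3, Tagln and Synpo2 rose and Smtn, Mcam and Kcnj8 fell among those of smooth muscle. At an unadjusted p under 0.05 in limma, 4 of 11 macrophage markers were lower and 0 higher, where 8.57% and 8.91% of all genes were. Vsig4 (-1.24) and Clec4f (-0.45) were among the 4, while Ptprc, Csf1r, Lyz2 and C1qa had differences above 0 that did not pass. Of 9 lymphocyte markers, 8 were not above the guide level. With the endothelial level as a covariate all 8 falls passed (3.33% of all genes were lower), and with the hepatocyte level the 8 and Ets1 (3.97%). The part of the portal fibroblast markers in these results was not tested.

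The falls differed in how far they depended on single arrays. Grhl3, Srf, Tcf21 and Hand2 passed without any 1 array (limma adjusted p up to 1.97e-05, 0.00605, 0.0158 and 0.0396). Twist2 lost its call without knockout 6 or 8 (up to 0.0576), Ets2 without control 2, control 4, knockout 5, 6 or 7 (up to 0.0622), Snai1 without control 1, 2 or 4, or without knockout 6, 7 or 8 (0.0678 at most), and Wt1 without any single control, knockout 7 or knockout 8 (0.0879 at most). Wt1 also lost its call on all arrays with trend and robust eBayes (limma adjusted p = 0.0925). The count of fallen factors was 5 without control 4, knockout 6 or knockout 7, and 2.44% to 3.40% of all genes were lower in the 8 fits without 1 array. At an adjusted p under 0.01, Grhl3, Srf and Tcf21 were lower, against 1.95% of all genes. Without control 1 and control 4 together, which have the lowest and the highest endothelial marker level of the controls, 4 factors were lower (Grhl3, Srf, Tcf21 and Ets1), against 2.03% of all genes, and Hand2 had a difference of -0.53 (limma adjusted p = 0.0527). Among the related genes named above, 7 also had adjusted p-values above 0.05 in limma without these 2 arrays: Tgfb1i1 (0.238), Elk3 (0.169), Tbx6 (0.104), Filip1l (0.0935), Ctbp2 (0.0928), Rcor1 (0.0716) and Zyx (0.0545).

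**Figure D5:**
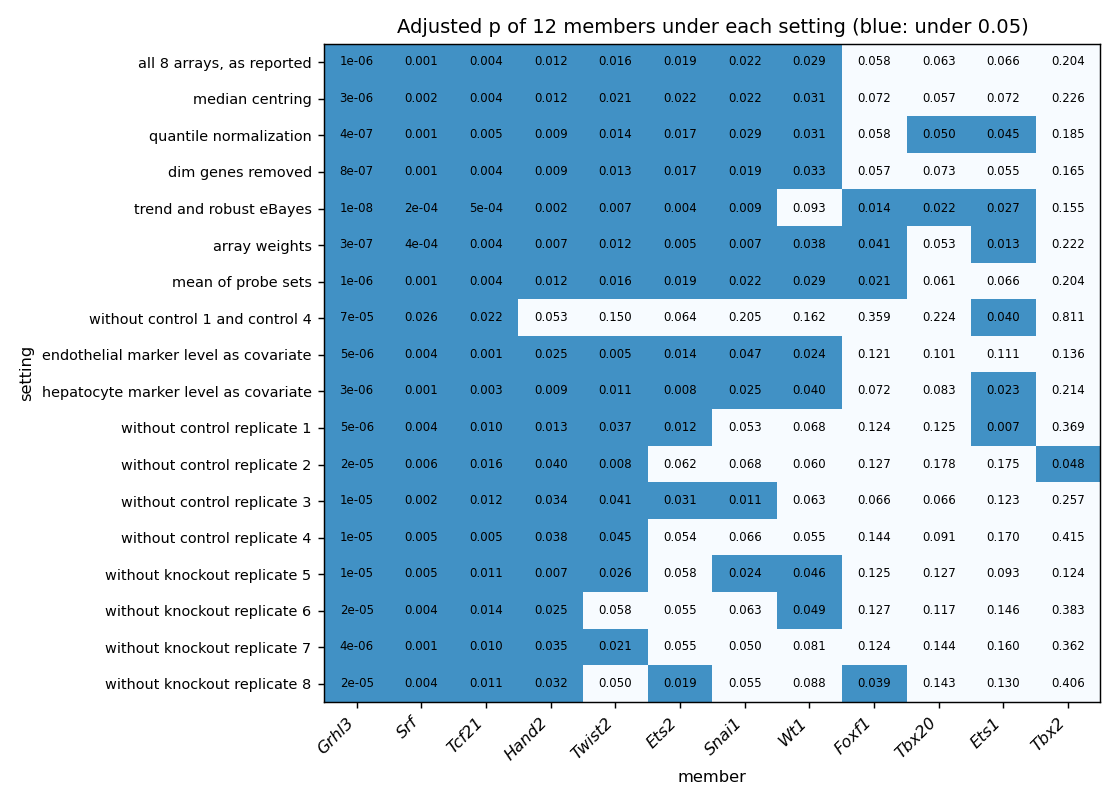
Adjusted p in limma of the 12 factors with an unadjusted p under 0.05 (columns) under each setting of the analysis (rows), blue where it is under 0.05. Grhl3, Srf and Tcf21 are blue in every row, Hand2 in every row except the one without control 1 and control 4, and the calls from Twist2 to Wt1 come and go with single arrays; Wt1 is also lost with trend and robust eBayes.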

How the data were processed

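RNA of sorted stellate cells (150 ng each) was hybridised to 8 Affymetrix mouse gene arrays, 1 per sample. The authors deposited 1 log2 value per probe set and array, normalized with the Robust Multichip Algorithm (RMA) per the labels and per the submitters' processing notes; RMA compresses differences of dim probe sets. The RMA version and scan dates were not given in the sources used, and batches went untested. Of 35556 probe sets, 21789 had 1 gene symbol in the platform annotation, and the probe set with the highest mean stood for each of 19938 genes. Knockout was compared with control over all 8 arrays in a linear model (limma 3.58.1 under R 4.3.3, lmFit then eBayes). P-values were two-sided and adjusted by Benjamini and Hochberg's method over every gene, with a threshold of 0.05 and no filter on dim genes. Exact permutation tests ran over all 70 assignments of arrays. The alternatives were median centring, quantile normalization, removal of dim genes, eBayes with trend and robust settings, array weights, the mean of probe sets, a threshold of 0.01, endothelial or hepatocyte marker level as a covariate, and fits without control 1 and control 4 or without each array. The fit was checked on simulated arrays with independent noise in each gene, where 50 of 19938 genes were changed by each size. It recovered 18% of changes of 0.25 on the log2 scale, 74% of 0.5, 92% of 1 and 100% of 2, and 4.7% of its calls were false. Small changes can therefore be missed. In the data more genes were called, 1472, so recovery in the fit of the data may differ from these rates. All factors were described, with up to 5 called genes of each further list by size of change. The members and lists were chosen with earlier results of these data known. Promoter windows came from a table of RefSeq starts (GRCm38.p6) in which 24 of the 39 factors were matched; windows of the others were not used here.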

Additional observations from a re-analysis of the deposited data

Results flagged for a closer look

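Single arrays stood far from the other 3 of their group in 9 of 110 groups of 4, judged by the gap to the nearest array as a share of the group's range under Dixon's test at the 95% level; chance alone marks about 1 in 20 such groups. Among the factors these were Tcf21 on knockout 8 (11.82, others 12.03 to 12.06), Gata6 on control 3 (12.06, others 12.20 to 12.21), Snai2 on control 1 (11.60, others 11.23 to 11.26) and on knockout 8 (11.34, others 11.50 to 11.52), Sox11 on knockout 5 (6.38, others 6.28 to 6.30) and Runx1 on control 3 (7.67, others 7.99 to 8.04). Among the related genes they were Rcor1 on knockout 5 (10.81, others 11.00 to 11.02), Tbx6 on control 1 (8.53, others 8.12 to 8.18) and Zyx on control 3 (11.11, others 10.97 to 10.98).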

How the results depend on the processing

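No paired analysis was possible because the groups share no replicate numbers. The count of 0 risen factors held under all 10 other settings and 8 fits without 1 array. The count of fallen factors went from 8 to 3 at an adjusted p under 0.01, 4 without control 1 and control 4, and 5 to 7 without 1 array. These counts include Ets1 (without control 1, alone or with control 4), Tbx2 (without control 2) and Foxf1 (without knockout 8), which are not among the 8. Of the 8 themselves, 3 remained without control 1 and control 4, and 5 to 7 without 1 array. The remaining settings gave 8 to 10, again with factors outside the 8 counted. Of these, trend and robust eBayes shared 7 of the 8 falls (Wt1 was lost). Under other scalings and fits, 3.3% to 5.63% of the genes tested were called in each direction. All called genes went from 1472 to 775 and 776 under the first pair of settings (1010 to 1409 without 1 array), and the 12 related genes that fell to 7 and 7 (8 to 13), while the 4 that rose came to between 4 and 6 without 1 array. Apart from the fewer arrays that enter some fits, and the stricter threshold itself, the cause was not tested. Factors that changed sign were all ones that did not pass. Without control 1 and control 4 these were Gata4 (0.0497), Foxf2 (0.0102), Foxc2 (0.0287), Foxd1 (0.0617), Mef2c (0.0332) and Osr1 (0.00317). With array weights they were Foxc1 (-0.0699), Foxd1 (0.00494), Tbx18 (-0.00981), Meox1 (-0.0368) and Zeb1 (-0.0197). With the endothelial covariate they were Prrx2 (-0.0155), Tbx18 (-0.00469) and Hoxa5 (0.10), and with the hepatocyte covariate Foxc1 (-0.00461). Without 1 array the ranges were -0.0867 to 0.0434 for Gata4, -0.0320 to 0.12 for Prrx2, -0.0703 to 0.0155 for Foxf2, -0.0793 to 0.0799 for Foxc1, -0.0564 to 0.0273 for Foxd1, -0.0473 to 0.0459 for Tbx18, -0.0471 to 0.0488 for Meox1, -0.24 to 0.0363 for Sox4, -0.0400 to 0.0120 for Mef2c, -0.31 to 0.0460 for Hoxa5, -0.0187 to 0.0612 for Zeb1 and -0.0924 to 0.0132 for Osr1. Dim signals, as of the 8 factors at the guide level, limit what can be seen.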
